A study of Homo sapiens with 16 samples.

Results

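CHI3L2 encodes a secreted chitinase-like protein of the glycosyl hydrolase 18 family, and its messenger RNA was followed here with that of 3 listed relatives, CHI3L1, CHID1 and CTBS, and of DENND2D, a gene of the opposite strand whose annotated span overlaps that of CHI3L2. These 5 genes were taken by name from the 64252 genes of each count table, with earlier results of these data known. 4 of the 5 passed the low-count filter in every comparison and CHI3L1 passed in none. The libraries were made from Jurkat and 6T-CEM, both T-cell acute lymphoblastic leukaemia lines, carrying a short hairpin RNA named for SH2D1A (sh-SH2D1A) or the control hairpin sh-NC. Jurkat was sampled on days 8 and 10 and 6T-CEM on days 5 and 10, with 2 libraries for each line, day and hairpin, so 16 libraries in 8 groups. The sources used here do not give the zero point of the days, the number of hairpin sequences or whether replicates were separate cultures, so p-values measure the spread between libraries, which may be technical. Line, day and count table coincide, and a difference between lines or days cannot be told apart from one between tables.

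Chitinases of this family cut chitin or shorter chains of N-acetylglucosamine, and the family also holds lectin-like members that have lost the catalytic residues and still bind sugar chains. CHI3L2 (also called YKL-39) and CHI3L1 (YKL-40) are such lectin-like secreted proteins, best known from cartilage, macrophages and inflamed or malignant tissue. CTBS is a lysosomal enzyme that trims the N-acetylglucosamine core of asparagine-linked sugar chains, and CHID1 is a more distant chitinase-domain protein that binds stabilin-1. DENND2D has a DENN domain, found in proteins that load GTP onto RAB GTPases of membrane traffic. SH2D1A encodes SAP, a small SH2-domain adaptor of T cells and natural killer cells.

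On hg38, CHI3L2 (ENSG00000064886) lies on the plus strand of chromosome 1 between 111200771 and 111243440, and DENND2D (ENSG00000162777) on the minus strand between 111187174 and 111204535, in the GENCODE 29 annotation. The 2 spans share 3765 bp and no exon base. Of 17 annotated CHI3L2 transcripts, 1 (CHI3L2-203) starts at 111200771, which is 82 bp from the start of DENND2D-201 at 111200689, and the next CHI3L2 start lies 26327 bp from it. Reads of the count tables are summed per gene, so they do not say which of these starts was used, and with no strand setting stated, unspliced reads from the shared stretch cannot be assigned to either gene. The start regions of this pair are shown because both genes are described together below. Each is the 300-base RefSeq window of GRCh38.p14 around an annotated start, 5′ to 3′ on the strand of the gene, at chr1:111227409-111227708 on the plus strand for CHI3L2 and chr1:111200597-111200896 on the minus strand for DENND2D. Capitals mark matches to the motifs searched.
CHI3L2: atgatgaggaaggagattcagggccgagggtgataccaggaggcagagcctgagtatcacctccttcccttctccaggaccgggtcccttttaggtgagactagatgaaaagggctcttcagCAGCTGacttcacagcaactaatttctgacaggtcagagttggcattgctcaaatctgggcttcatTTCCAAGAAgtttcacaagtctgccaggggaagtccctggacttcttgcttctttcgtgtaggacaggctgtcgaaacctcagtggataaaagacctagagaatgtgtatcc
DENND2D: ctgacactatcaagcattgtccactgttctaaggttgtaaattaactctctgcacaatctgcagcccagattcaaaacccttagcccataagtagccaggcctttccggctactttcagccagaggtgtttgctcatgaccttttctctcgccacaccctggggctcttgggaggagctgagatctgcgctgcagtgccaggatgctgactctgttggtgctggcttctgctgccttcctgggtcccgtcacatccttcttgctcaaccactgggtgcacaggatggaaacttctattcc

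A set of 10 short motifs was searched on both strands, each as exact letters: TGANTCA for AP-1, AGATAA for a GATA factor, CAGCTG for an E-box, TGTGGT for RUNX, CCGGAAG for ETS, TTCNNNGAA for STAT, TATAAA for a TATA box, GGGCGG for a GC box, CTTTGAA for TCF, and the NF-kB motif. The CHI3L2 window shown held 2 matches, an E-box 128 bases and a STAT motif 62 bases before the start, and 17.9% and 7.66% of all 35116 RefSeq windows held these motifs. RefSeq has a second CHI3L2 start window, at chr1:111227463-111227762, in which the same matches lie 182 and 116 bases before the start. The DENND2D window held none of the 10, which says only that these letters are not in it, and 126 of its bases lie at or beyond the start of CHI3L2-203. The CTBS window held 6 GC boxes (45.0% of windows held at least 1), the CHID1 window 1 ETS motif (10.3%) and the CHI3L1 window a TATA box 27 bases before the start (11.5%). No 2 of the 5 windows shared a motif. GC content was 49.7% for CHI3L2 and 52.3% for DENND2D, against 62.3% for CHID1, 72.0% for CTBS and a median of 58.7% over all windows.

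The libraries held between 27217899 and 33788024 counts, and where none was seen up to 3 counts cannot be told from 0, which is 0.0888 to 0.110 CPM, for counting error only. CPM are counts scaled to library size, adjusted here by TMM, a factor that evens out composition between libraries. SH2D1A, the gene the hairpin is named for, fell in all 4 comparisons, to 30.4 and 33.1% of its sh-NC level in Jurkat (days 8 and 10) and to 30.5 and 50.1% in 6T-CEM (days 5 and 10), with edgeR adjusted p between 1.14e-05 and 0.00191. All 10 T-cell markers examined (such as CD3D, CD3E and LCK) reached 1 CPM in at least 1 library, the sense used for all markers here. Their summed level was 1338 to 2976 CPM with sh-SH2D1A and 1383 to 3304 CPM with sh-NC. CD2 was low in 6T-CEM, with group means of 1.37 to 3.92 CPM, against 55.3 to 112 CPM in Jurkat. Of the cells otherwise known for chitinase-like proteins, 6 macrophage and monocyte markers summed to 0.457 to 1.45 CPM with sh-SH2D1A and 0.272 to 1.95 CPM with sh-NC, and 5 neutrophil markers to at most 0.421 and 1.24 CPM; ELANE did not pass 3 counts in any library. 5 cartilage and mesenchymal markers summed to 5.60 to 11.1 CPM and 3.36 to 8.26 CPM, with only COL1A1 reaching 1 CPM, 5 B-cell markers to 16.5 to 62.2 CPM and 24.9 to 74.9 CPM, with only CD79A and CD79B reaching it, and 5 epithelial markers to 1.15 to 5.45 CPM and 1.11 to 5.72 CPM. The replicates of 6T-CEM sh-SH2D1A at day 5 stood further apart than those of any other group, with a chi-square over genes of 22 per degree of freedom, where other groups had 4.66 to 9.37, so values from that table are the least precise.

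CHI3L2 fell with sh-SH2D1A in both lines on every day sampled, to between 32.2 and 52.4% of its sh-NC level. In Jurkat at day 8 it had 398 and 384 CPM (replicates 1 and 2) with sh-SH2D1A, against 1171 and 1245 CPM with sh-NC. At day 10 in Jurkat the values were 725 and 719 CPM with sh-SH2D1A, against 1819 and 1859 CPM with sh-NC. For 6T-CEM at day 5 they were 115 and 131 CPM with sh-SH2D1A, against 347 and 341 CPM with sh-NC. In every one of these groups the hairpin libraries lay below the control libraries with a wide gap. That order alone held for 28.3, 24.5 and 25.3% of all genes tested in these comparisons, and for 28.7% in 6T-CEM at day 10. At day 10 in 6T-CEM, CHI3L2 had 107.2 and 107.5 CPM with sh-SH2D1A, against 207 and 203 CPM with sh-NC, the smallest gap of the 4. In these bulk libraries fewer cells expressing CHI3L2 and less of its RNA per cell cannot be told apart.

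The log2 change of CHI3L2 was -1.64 ± 0.05 (adjusted p = 1.61e-05) and -1.35 ± 0.07 (2.52e-05) in Jurkat, at days 8 and 10. It was -1.47 ± 0.12 (0.00191) and -0.93 ± 0.03 (4.22e-06) in 6T-CEM, at days 5 and 10. Values are sh-SH2D1A over sh-NC with the standard error, 2 libraries per group, by edgeR's quasi-likelihood test with Benjamini-Hochberg adjustment. Its calls stand against 7.13, 2.52, 1.51 and 7.42% of all tested genes called lower in those comparisons. Over the mean of the 4 changes CHI3L2 fell by 1.35 ± 0.03 on the log2 scale (adjusted p = 7.49e-12), where 12.3% of 22032 genes were called lower. None of the 4 calls was lost when any library was left out. With no filter on low counts the call in Jurkat at day 10 was lost (adjusted p = 0.139), as was that of every other gene there.

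By CPM, which is not divided by transcript length, CHI3L2 was among the highest messenger RNAs of Jurkat and less so in 6T-CEM. The ranking by mean CPM took the 17583 genes with a symbol that passed the low-count filter over the 16 libraries. In it CHI3L2 was 102nd in Jurkat at day 10 with sh-SH2D1A and 18th with sh-NC, and 314th and 45th at day 8. In 6T-CEM it was 1872nd and 375th at day 5 and 2155th and 795th at day 10, sh-SH2D1A given before sh-NC. The order of the 8 groups by CHI3L2 level began with Jurkat sh-NC at days 10 and 8, went on with Jurkat sh-SH2D1A at days 10 and 8, then 6T-CEM sh-NC at days 5 and 10, and ended with 6T-CEM sh-SH2D1A at days 5 and 10. No neighbours in this order had overlapping libraries, and the highest group lay 17.1-fold above the lowest. How many other genes had no such overlap was not counted. The 4 Jurkat groups were thus all above the 4 of 6T-CEM, the hairpin groups of Jurkat included, though Jurkat sh-SH2D1A at day 8 (384 CPM in its lower library) was close to 6T-CEM sh-NC at day 5 (347 CPM in its higher).

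**Figure D1:**
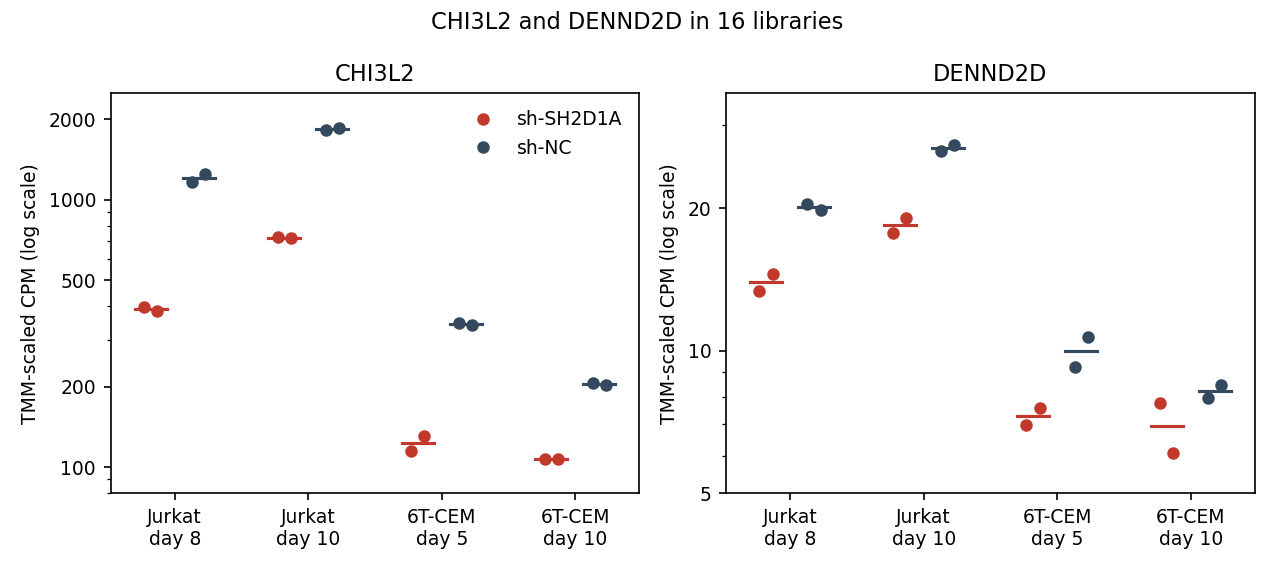
CHI3L2 (left panel) and DENND2D (right panel) in TMM-scaled CPM on a log axis, by line and day, with sh-SH2D1A in red left of sh-NC in dark blue; points are libraries and bars are the means of 2. Both genes were lower with sh-SH2D1A in every line and day, though the falls of DENND2D in 6T-CEM did not pass an edgeR adjusted p under 0.05. CHI3L2 lay between 107 and 1859 CPM and DENND2D between 6.07 and 27.3 CPM.

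Without the SH2D1A hairpin the level of CHI3L2 already differed between lines and days. At day 10, sh-NC libraries of Jurkat had 1819 and 1859 CPM, against 207 and 203 CPM in 6T-CEM, a log2 difference of 3.16 ± 0.07 (edgeR adjusted p = 6.27e-13; 18.4% of genes called higher). Within Jurkat sh-NC the level was 0.61 ± 0.06 higher on the log2 scale at day 10 than at day 8 (adjusted p = 0.000161; 1.83% called higher). Within 6T-CEM sh-NC it was lower at day 10 than at day 5, by -0.74 ± 0.06 (adjusted p = 8.63e-07; 20.6% called lower). The control level thus rose with day in one line and fell in the other, and the days of the earlier sample also differ (8 and 5).

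The size of the CHI3L2 change differed with day within 6T-CEM and, less firmly, between lines. In 6T-CEM the change was 0.55 ± 0.09 log2 units smaller in size at day 10 than at day 5 (adjusted p = 0.0125 for the difference; 0.404% of genes called in that direction), and leaving out either day-10 sh-NC library ended the call (adjusted p = 0.0715 and 0.0654). SH2D1A changed in the same direction between these days, by 0.72 ± 0.13 (adjusted p = 0.0181), also lost without 4 of the 16 libraries in turn. In Jurkat the difference between day 10 and day 8 was 0.28 ± 0.09 and did not pass (edgeR adjusted p = 0.535, approximate 95% interval 0.11 to 0.45 before adjustment).

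At day 10 the CHI3L2 change in Jurkat minus that in 6T-CEM was -0.41 ± 0.09 (edgeR adjusted p = 0.0438; 0.295% of genes called in that direction), so the fall was larger in Jurkat. Over both days it was -0.28 ± 0.06 (adjusted p = 0.0347; 0.690%). Leaving out 1 library at a time ended the first call in 14 of 16 fits and the second in 13, with differences between -0.44 and -0.40 and between -0.33 and -0.24. SH2D1A at day 10 gave -0.60 ± 0.13 for the same contrast (adjusted p = 0.0405), lost in 13 of 16 such fits. The part that the unequal fall of SH2D1A plays in the unequal fall of CHI3L2 was not tested.

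CHI3L2 and SH2D1A can be set against each other within a library as a ratio of their counts, which no scaling between libraries touches. The log2 ratio of CHI3L2 to SH2D1A was 0.16 higher with sh-SH2D1A than with sh-NC on average over the 4 line and day pairs (SD 0.098), with values of 0.08 and 0.25 in Jurkat at days 8 and 10 and 0.24 and 0.07 in 6T-CEM at days 5 and 10. Both sh-SH2D1A libraries lay above both sh-NC libraries in all 4, though in 6T-CEM at day 10 the closest libraries of the arms both had a log2 ratio of 0.41. An exact two-sided permutation test within line and day gave p = 0.00154, the smallest it can give (Benjamini-Hochberg 0.00154 over 2 ratios tested). CHI3L2 thus fell slightly less, in proportion, than the gene the hairpin is named for.

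DENND2D, the overlapping neighbour, moved in the same direction as CHI3L2 and by less. In Jurkat at day 8 it had 13.4 and 14.5 CPM with sh-SH2D1A, against 20.4 and 19.8 CPM with sh-NC. At day 10 in Jurkat it had 17.7 and 19.1 CPM with sh-SH2D1A, against 26.5 and 27.3 CPM with sh-NC. The arms were well apart in Jurkat. For 6T-CEM at day 5 the values were 6.96 and 7.58 CPM with sh-SH2D1A, against 9.26 and 10.7 CPM with sh-NC. Those of 6T-CEM at day 10 were 7.77 and 6.07 CPM with sh-SH2D1A, against 7.94 and 8.48 CPM with sh-NC. Both hairpin libraries lay below both control libraries in all 4, narrowly at the last, where such an order held for 28.7% of all genes tested (28.3, 24.5 and 25.3% in the other 3 comparisons).

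The log2 change of DENND2D was -0.54 ± 0.11 in Jurkat at day 8 (edgeR adjusted p = 0.0209) and -0.54 ± 0.12 at day 10 (0.0330). It was -0.45 ± 0.24 in 6T-CEM at day 5 (0.383, approximate 95% interval -0.91 to 0.02 before adjustment) and -0.24 ± 0.18 at day 10 (0.417, interval -0.59 to 0.10), neither of which passed. The Jurkat calls were fragile: that of day 8 was lost without either sh-SH2D1A library (adjusted p = 0.104 without replicate 1 and 0.0806 without replicate 2), and that of day 10 without either sh-NC library (0.067 and 0.0814) or without sh-SH2D1A replicate 1 (0.148). Both were also lost with no filter on low counts (0.0658 and 0.238). Over the mean of the 4 changes DENND2D fell by 0.44 ± 0.07 on the log2 scale (adjusted p = 0.000379), a call that held without any single library. The difference of its change between lines did not pass at day 10 (-0.30 ± 0.20, adjusted p = 0.714) or over both days (-0.19 ± 0.14, 0.633), nor did that between days in 6T-CEM (0.21 ± 0.20, 0.716).

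**Figure D2:**
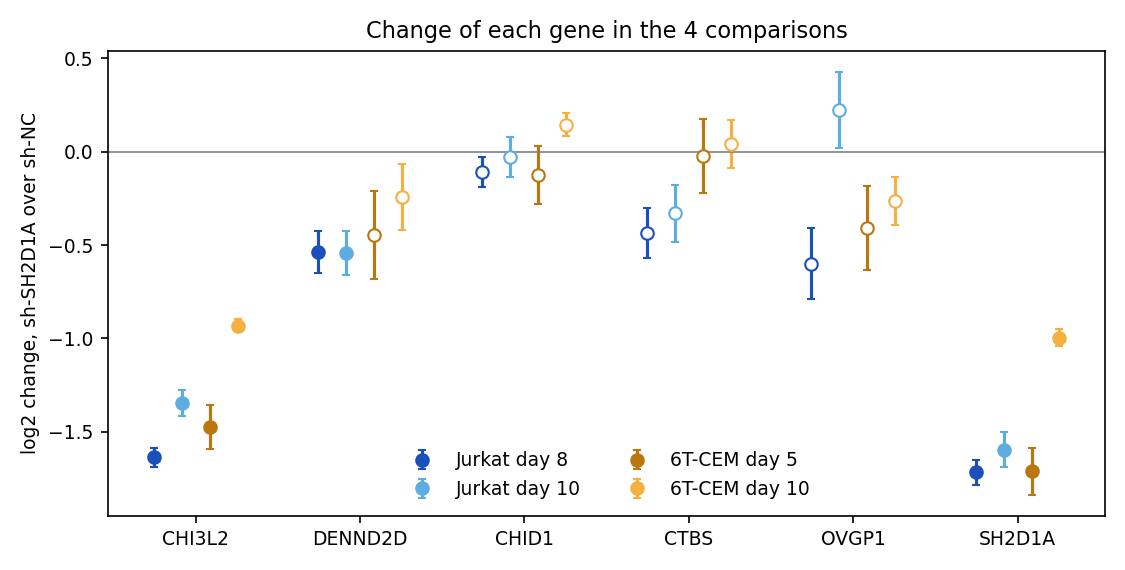
Log2 change of 6 genes, sh-SH2D1A over sh-NC, with the standard error from edgeR, in 4 comparisons by colour; filled points passed an adjusted p under 0.05 and open points did not. CHI3L2 and SH2D1A passed in all 4, DENND2D in Jurkat on both days, and CHID1, CTBS and OVGP1 in none.

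The ratio of CHI3L2 to DENND2D fell within every line and day. In Jurkat at day 8 there were 29.7 and 26.4 counts of CHI3L2 per count of DENND2D with sh-SH2D1A, against 57.3 and 62.8 with sh-NC, and at day 10 there were 40.9 and 37.6, against 68.6 and 68.1. In 6T-CEM at day 5 there were 16.5 and 17.3 with sh-SH2D1A, against 37.4 and 31.9 with sh-NC, and at day 10 there were 13.8 and 17.7, against 26.0 and 24.0. The arms did not overlap in any of the 4. The log2 ratio was 0.90 lower with sh-SH2D1A on average (mean -0.90, SD 0.197 over the 4 pairs; exact two-sided permutation test within line and day, p = 0.00154, the smallest possible; Benjamini-Hochberg 0.00154 over 2 ratios). CHI3L2 alone already had its arms apart in all 4, so its ratio to a gene that fell less can separate for that reason alone. How many other genes would give the same p in place of DENND2D was not counted, so the test does not single out this pair. Per kilobase of exon, the level of CHI3L2 exceeded that of DENND2D 46.9-fold in Jurkat sh-SH2D1A at day 8 and 100.5-fold with sh-NC, and in 6T-CEM at day 10 the figures were 26.0-fold and 41.9-fold.

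Across groups, however, DENND2D followed the same order as CHI3L2. The 8 group means of DENND2D ran in exactly the order given for CHI3L2, and the libraries of neighbouring groups overlapped at only the last step, between 6T-CEM sh-SH2D1A at days 5 and 10. How many other genes followed this order was not counted. The span of DENND2D was narrower, 3.88-fold between highest and lowest group. At day 10, sh-NC libraries of Jurkat had 26.5 and 27.3 CPM, against 7.94 and 8.48 CPM in 6T-CEM, a log2 difference of 1.71 ± 0.14 (edgeR adjusted p = 4.46e-07). Differences between days within sh-NC did not pass for DENND2D in Jurkat (0.42 ± 0.14, day 10 over day 8, adjusted p = 0.115) or in 6T-CEM (-0.28 ± 0.14, day 10 over day 5, 0.140).

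Pearson's r between log2 CPM of DENND2D and CHI3L2 was 0.975 over the 16 libraries, the 8th highest of 13793 genes with a symbol and a mean of at least 1 CPM. The same correlation was 0.968 within the 8 libraries of Jurkat, 0.881 within the 8 of 6T-CEM, 0.986 within the 8 of sh-SH2D1A and 0.993 within the 8 of sh-NC. These are descriptions without a p: the libraries share 2 lines, and each subset still holds differences of hairpin, day or line. Unspliced reads from the stretch the genes share cannot be assigned to either gene, and their part in this correlation was not tested.

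**Figure D3:**
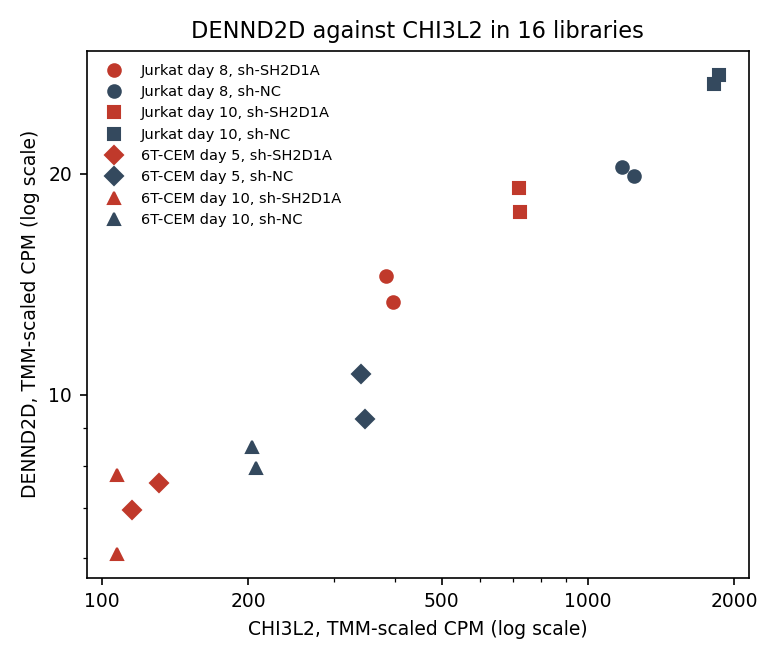
DENND2D against CHI3L2 in 16 libraries, both in TMM-scaled CPM on log axes, with line and day by marker shape and sh-SH2D1A in red, sh-NC in dark blue. The points follow one rising band (r = 0.975), with 6T-CEM at the low end and Jurkat sh-NC at the high end, and CHI3L2 spans a wider range of folds (17.1 between group means) than DENND2D (3.88).

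The 5 genes whose log2 CPM followed CHI3L2 most closely over the 16 libraries were PRKAB1 (r = 0.989), a regulatory subunit of AMP-activated kinase, PLCH1 (0.986), a phospholipase C, TBC1D2B (0.980), a RAB GTPase-activating protein, PTPN9 (0.979), a tyrosine phosphatase, and CRTAP (0.978), a cartilage-associated protein of collagen modification. Their log2 changes averaged over the 4 comparisons were -0.48, -1.01, -0.53, -0.50 and -0.27, so their likeness came with smaller falls than that of CHI3L2. When genes were instead ranked by how near their 4 changes lay to those of CHI3L2 (root mean square difference, 13629 genes), the nearest were BHLHE40 (0.102), a transcriptional repressor, MAP2K2 (0.177), a kinase of the MAP kinase cascade, SH2D1A itself (0.180), CD38 (0.251), an NAD-consuming surface enzyme, and SEMA4A (0.260), a semaphorin. DENND2D ranked 469th by that measure (0.920). Over the 16 libraries r with CHI3L2 was 0.956 for SEMA4A, 0.686 for MAP2K2, 0.486 for CD38, 0.448 for SH2D1A and 0.330 for BHLHE40. Within the 8 libraries of Jurkat and the 8 of 6T-CEM these r were higher for SH2D1A (0.943 and 0.925), CD38 (0.980 and 0.870), BHLHE40 (0.907 and 0.741) and MAP2K2 (0.885 and 0.772). Each line holds both hairpins and these genes were picked for like changes between hairpins, so a high r there follows from that choice. Within the 8 libraries of sh-SH2D1A and the 8 of sh-NC, r was -0.444 and 0.369 for SH2D1A, 0.217 and 0.236 for CD38 and -0.182 and 0.197 for BHLHE40. It was 0.487 and 0.853 for MAP2K2 and 0.968 and 0.971 for SEMA4A.

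CHID1 and CTBS, the other listed relatives above the low-count filter, were not called in any of the 4 comparisons. CHID1 lay between 28.5 and 52.4 CPM over all libraries. At day 8 in Jurkat it had 43.3 and 45.6 CPM with sh-SH2D1A, against 50.4 and 45.0 CPM with sh-NC, and at day 10 it had 47.4 and 40.0 CPM, against 45.6 and 43.8 CPM. The arms overlapped on both days. For 6T-CEM at day 5, CHID1 had 32.3 and 28.5 CPM with sh-SH2D1A, against 33.9 and 32.9 CPM with sh-NC, and at day 10 it had 51.5 and 52.4 CPM, against 44.9 and 49.2 CPM. Here the arms did not overlap, with sh-SH2D1A lower at day 5 and higher at day 10, an order that 25.3% and 28.1% of genes had in those comparisons.

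The log2 changes of CHID1 were -0.11 ± 0.08 and -0.03 ± 0.11 in Jurkat at days 8 and 10 (edgeR adjusted p = 0.42 and 0.925) and -0.13 ± 0.16 and 0.15 ± 0.06 in 6T-CEM at days 5 and 10 (0.743 and 0.176). The mean of the 4 was -0.03 ± 0.05, with an approximate 95% interval of -0.13 to 0.07 before adjustment (edgeR adjusted p = 0.712). CHID1 also differed between days: sh-NC libraries of 6T-CEM were 0.50 ± 0.10 higher on the log2 scale at day 10 than at day 5 (adjusted p = 0.00114; 19.3% of genes called higher). Its order of groups was unlike that of CHI3L2, with 6T-CEM sh-SH2D1A at day 10 highest and 6T-CEM sh-SH2D1A at day 5 lowest, 1.71-fold apart.

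CTBS, the lysosomal chitobiase, lay between 10.3 and 31.6 CPM. In Jurkat at day 8 it had 10.3 and 11.8 CPM with sh-SH2D1A, against 14.4 and 15.3 CPM with sh-NC, and at day 10 it had 13.1 and 11.8 CPM, against 16.4 and 14.9 CPM. The Jurkat hairpin libraries were all below their controls, an order that 28.3% and 24.5% of all genes tested had at days 8 and 10. The log2 changes of -0.44 ± 0.13 (edgeR adjusted p = 0.0758) and -0.33 ± 0.15 (0.282) did not pass. Before adjustment their approximate intervals, at the level used for DENND2D, were -0.7 to -0.17 and -0.63 to -0.03. The second is too narrow: it leaves out 0 although the unadjusted edgeR p was 0.0535. For 6T-CEM at day 5, CTBS had 22.2 and 31.6 CPM with sh-SH2D1A, against 26.5 and 28.5 CPM with sh-NC, and at day 10 it had 13.5 and 11.8 CPM, against 12.5 and 12.1 CPM. These arms overlapped, and the changes were -0.02 ± 0.20 (0.972) and 0.04 ± 0.13 (0.869). The widest pair, at day 5 with sh-SH2D1A, belongs to the group whose replicates stood furthest apart.

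The mean change of CTBS was -0.19 ± 0.08 (adjusted p = 0.105), with a pass in 1 of 16 fits with a library left out (0.0103 without 6T-CEM sh-SH2D1A replicate 2 at day 5). In sh-NC libraries of 6T-CEM, CTBS was lower at day 10 than at day 5, by -1.16 ± 0.16 on the log2 scale (adjusted p = 4.83e-05), the same direction as CHI3L2 there. Of the 50-base words in annotated CTBS transcripts, 36.2% also occur in transcripts of SPATA1 or 2 unlisted overlapping genes, and 1756 of its exon bases (25.3%) overlap exons of SPATA1 on the opposite strand. SPATA1 held only 5 to 37 counts per library, against 321 to 839 for CTBS. How the counting split such reads is not stated, so in this respect the level of CTBS is less certain than that of CHI3L2, CHID1 and DENND2D, whose words occurred in no other annotated gene. That check covers annotated transcripts only, and unspliced reads from the stretch shared by CHI3L2 and DENND2D still cannot be assigned. The effect of such reads on DENND2D, by far the lower of that pair, was not tested.

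**Figure D4:**
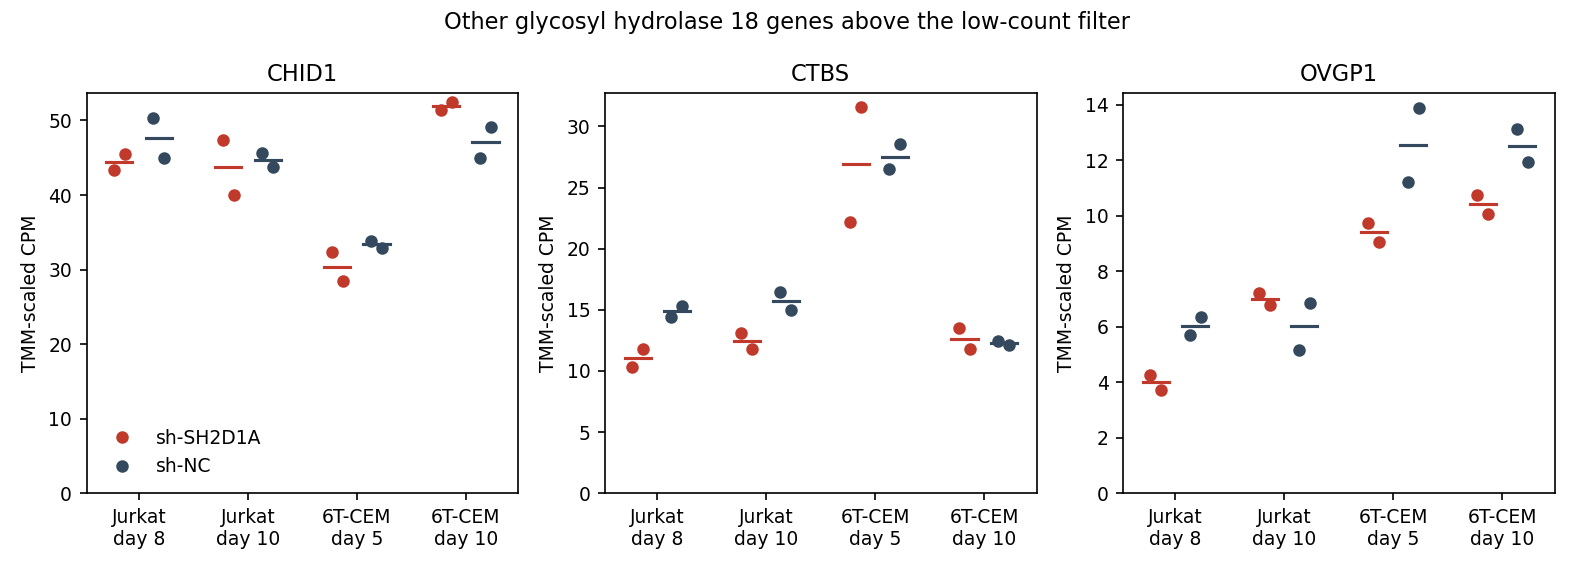
CHID1, CTBS and OVGP1 in TMM-scaled CPM on linear axes from 0, by line and day, with sh-SH2D1A in red left of sh-NC in dark blue; points are libraries and bars are the means of 2. CTBS was highest in 6T-CEM at day 5 (22.2 to 31.6 CPM), CHID1 lowest there (28.5 to 33.9 CPM), and OVGP1 lower in Jurkat than in 6T-CEM.

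CHI3L1, the other lectin-like gene listed, was too low to measure. It had 0 counts in 12 of 16 libraries, among them all 8 of Jurkat and the 4 of 6T-CEM at day 5. In 6T-CEM at day 10 it had 3 and 12 counts with sh-SH2D1A, against 4 and 2 counts with sh-NC, 21 counts in all. The arms overlapped, and no fold is given. CHIA and CHIT1, the 2 enzymatically active chitinases, were as low: CHIA had 4 counts in 1 library and 0 in 15, and CHIT1 had 0 to 4 counts. CHI3L2 in the same libraries held between 3423 and 52366 counts.

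OVGP1, an oviduct glycoprotein of the family that lies in the same stretch of chromosome 1, was measurable at 3.72 to 13.9 CPM. Its changes were -0.60 ± 0.19 and 0.22 ± 0.21 in Jurkat at days 8 and 10 and -0.41 ± 0.23 and -0.26 ± 0.13 in 6T-CEM at days 5 and 10 (edgeR adjusted p = 0.0817, 0.625, 0.406 and 0.225), so none passed and the signs differed. Its mean change of -0.26 ± 0.09 had an adjusted p of 0.0433, which was lost without any 1 of 13 libraries and with no filter on low counts (0.112). In sh-NC libraries at day 10 OVGP1 was lower in Jurkat than in 6T-CEM, by -1.06 ± 0.18 (adjusted p = 0.000295; 18.2% of genes called lower), the opposite of CHI3L2 and DENND2D. Of the 7 family genes examined, 4 could be tested, and CHI3L2 was the 1 called in each of the 4 comparisons, where 7.13, 2.52, 1.51 and 7.42% of all genes were called lower.

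Genes that work beside the family were described from lists. Of 10 lysosomal genes of sugar-chain breakdown, all tested, HEXA was lower in Jurkat at day 8 (-0.32 ± 0.06, edgeR adjusted p = 0.0129; 7.13% of all genes called lower) and FUCA1 higher in 6T-CEM at day 10 (0.38 ± 0.10, 0.0388; 6.61% of genes called higher), and none passed in the other 2 comparisons. HEXA, a hexosaminidase subunit, and FUCA1, a fucosidase, are named here because they passed. Over the mean of the 4 changes HEXA and MAN2B2 were called lower, 2 of the 10, where 12.3% of all genes were called lower. Medians of this list were -0.19, -0.09, -0.13 and 0.01 for Jurkat at its earlier and later day and then 6T-CEM at its earlier and later day, against medians of all tested genes within 0.004 of 0. Of 10 receptors and partners of chitinase-like proteins, 8 were tested in each comparison and none passed, with medians of -0.26, -0.20, -0.12 and -0.13; IL13RA2, the receptor known for CHI3L1, had 2 counts in 1 library and 0 in 15, and CD44 0 to 17 counts. Over the mean of the 4 changes AGER (-0.61 ± 0.18, adjusted p = 0.0244) and ITGB3 (-0.42 ± 0.08, 0.00202) passed, named for that reason; they were 2 of 9 tested members, where 12.3% of all genes were called lower. Of 6 genes of the DENND2 family and RAB9, 5 were tested, and DENND2D was the 1 called, on both Jurkat days (7.13 and 2.52% of all genes called lower), calls that were lost without certain single libraries, as given above. Over the mean of the 4 changes its paralogue DENND2B was higher (0.26 ± 0.08, edgeR adjusted p = 0.0337, 10.7% called higher). DENND2C, at 47 to 117 counts, was not called, but its group means were also lower with sh-SH2D1A throughout. They were 2.23 against 3.29 CPM and 1.79 against 2.57 CPM in Jurkat at days 8 and 10. In 6T-CEM they were 2.46 against 3.53 CPM at day 5 and 2.19 against 2.68 CPM at day 10. A lower level was thus not particular to DENND2D in this list.

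Around CHI3L2, 20 further genes with a symbol have spans within 250 kb, of which 9 were tested in all 4 comparisons, 1 in some and 10 in none. DRAM2, a lysosomal membrane protein of autophagy whose span lies 60.6 kb from that of CHI3L2 beyond DENND2D, was lower in Jurkat at day 8 (-0.67 ± 0.09, edgeR adjusted p = 0.00461) and day 10 (-0.41 ± 0.09, 0.0373). In 6T-CEM it changed by -0.45 ± 0.16 at day 5 (0.198) and -0.28 ± 0.10 at day 10 (0.0981), which did not pass. WDR77, a methylosome subunit 196 kb away on the other side, was higher in Jurkat at day 8 (0.29 ± 0.06, 0.019; 5.23% of genes called higher). In each Jurkat comparison 1 of 10 tested neighbours was thus called lower, against 7.13 and 2.52% of all genes.

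CEPT1, a phospholipid synthesis enzyme that lies between DRAM2 and DENND2D, did not pass in any comparison (-0.21 ± 0.06 in Jurkat at day 8, adjusted p = 0.0757; -0.13, 0.03 and -0.07 in the others). Neither did LRIF1, PIFO, UBE2FP3, ATP5PB, C1orf162, OVGP1 or the pseudogene CHIAP1, the last at 0 to 32 counts. CHIAP1, 6.81 kb from CHI3L2, passed the filter only in Jurkat when each comparison was taken alone. Its changes there were -1.69 ± 0.95 at day 8 and -0.655 ± 0.41 at day 10 (edgeR adjusted p = 0.293 and 0.445). In the joint fit its mean change was -1.30 ± 0.53 (edgeR adjusted p = 0.0985), near the -1.35 of CHI3L2 but far less precise. The median change of the tested neighbours was -0.29, 0.04, -0.07 and -0.25 in the 4 comparisons, in the order given for the lists. C1orf162 was near the filter at 11 to 59 counts, with -0.94 in 6T-CEM at day 10. Of the genes with a symbol tested in all 4 comparisons along this stretch, which leaves out CHIAP1, CHI3L2 had the largest mean fall. DENND2D and DRAM2 had smaller falls, called in Jurkat when each comparison was taken alone, and CEPT1 between them had none called. Over the mean of the 4 changes DRAM2 (-0.46 ± 0.06, edgeR adjusted p = 5.26e-05) was called lower, as was DENND2D (-0.44 ± 0.07, 0.000379), where 12.3% of all genes were. OVGP1, 171 kb from CHI3L2, was also called lower over that mean (-0.26 ± 0.09, edgeR adjusted p = 0.0433), a fragile call as given above. WDR77 was called higher over that mean (0.27 ± 0.03, 4.62e-05), where 10.7% of all genes were.

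**Figure D5:**
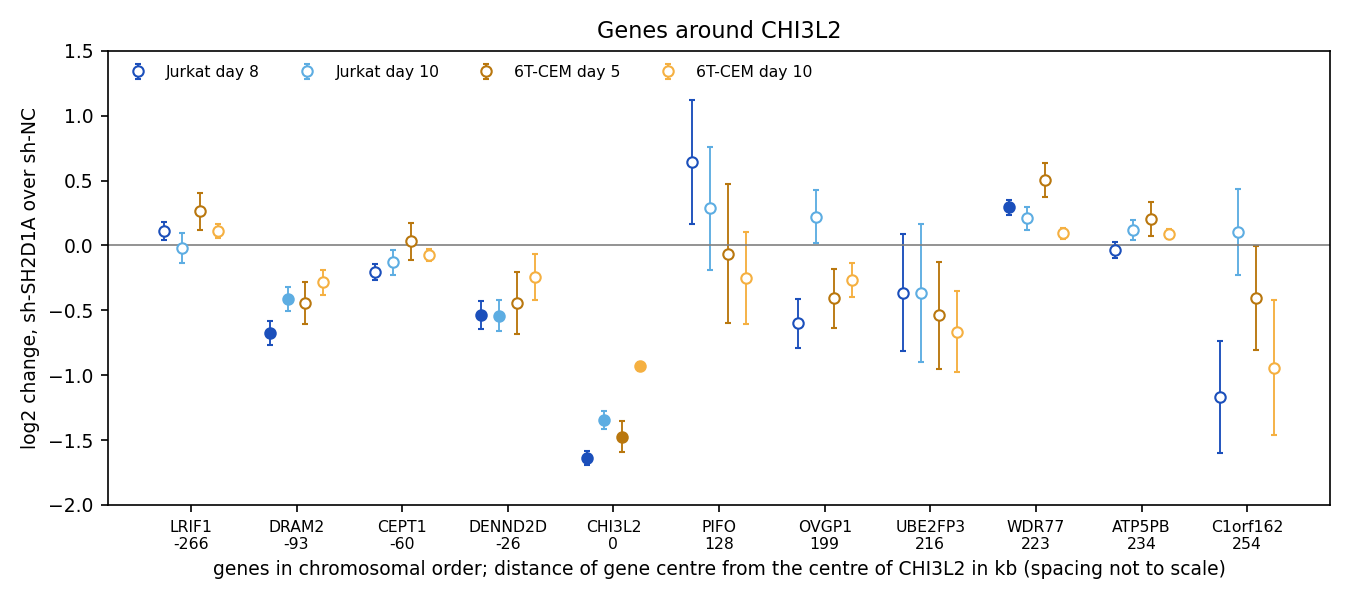
Log2 change, sh-SH2D1A over sh-NC, with its edgeR standard error, for 11 genes tested in all 4 comparisons, in chromosomal order with the distance of each gene's centre from that of CHI3L2 in kb under its name; filled points passed an adjusted p under 0.05. CHI3L2 lay between -1.64 and -0.93, DRAM2 and DENND2D were called lower in Jurkat and WDR77 higher in Jurkat at day 8.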

How the data were processed

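RNA was taken from Jurkat and 6T-CEM cells with sh-SH2D1A or sh-NC, with TruSeq libraries, per the labels' protocols. Reads were handled with HISAT2 2.2.0 and StringTie on hg38, per the submitters' processing notes. The values deposited by the authors are counts per gene, whole and not normalised, in 4 tables, 1 for each line and day. No strand setting, annotation or counting step is stated. If StringTie made the counts, they are estimates from coverage rounded to whole numbers, and a floor of 3 counts is then only approximate. The members and lists were chosen with earlier results of these data known, and the members, list rules and neighbours were named by fixed rules. HEXA, FUCA1, MAN2B2, AGER, ITGB3 and DENND2B were named after their values were seen.

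Each table was fitted alone with edgeR 4.0.16 in R 4.3.3 (genes kept by filterByExpr at a minimum count of 10, TMM, glmQLFit and the quasi-likelihood F-test, two-sided, Benjamini-Hochberg over all tested genes, calls at an adjusted p under 0.05). Standard errors are the absolute log2 change over the square root of F. The mean change and the differences between lines and days come from a joint fit of the 16 libraries, with a mean for each of the 8 groups. Log2 ratios of 2 genes added a pseudocount of 0.5 to each count and used an exact permutation test within line and day. Correlations used log2 CPM with a prior count of 2. The fits were tested on simulated data. Alternatives were DESeq2 1.42.0 (size factors and Wald test), no filter, all 16 libraries in the fit, a replicate block, a pseudocount of 5 counts, and each library left out. Positions come from GENCODE 29 and start windows from RefSeq GRCh38.p14. Totals were 27217899 to 33788024 counts per library.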

Additional observations from a re-analysis of the deposited data

Results flagged for a closer look

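Differences between groups in the size of the CHI3L2 change were singled out by tests of the difference itself. The change at day 10 was larger in Jurkat than in 6T-CEM, by -0.41 ± 0.09 log2 units (edgeR adjusted p = 0.0438), a call lost in 14 of 16 fits with a library left out. Over both days of each line the difference was -0.28 ± 0.06 (edgeR adjusted p = 0.0347), lost in 13 of 16 such fits. Within 6T-CEM the change was 0.55 ± 0.09 units nearer to 0 at day 10 than at day 5 (edgeR adjusted p = 0.0125), lost without either day-10 sh-NC library. Beside these, SH2D1A differed by -0.60 ± 0.13 between lines at day 10, by -0.29 ± 0.09 over both days (adjusted p = 0.121; 0.0328 with the DESeq2 Wald test) and by 0.72 ± 0.13 between days in 6T-CEM; its part in the CHI3L2 differences was not tested.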

How the results depend on the processing

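CHI3L2 kept its direction and its call under every alternative run in the 4 comparisons except with no filter on low counts in Jurkat at day 10, where its change was -1.35 (adjusted p = 0.139), DENND2D was -0.55 (0.238), SH2D1A -1.60 and 0 genes were called (3533 at an unadjusted p under 0.05; 1054 genes called by the DESeq2 Wald test and 1423 with the replicate block). DENND2D in Jurkat at day 8 was -0.53 with no filter (0.0658), and in 6T-CEM at day 5 it passed at -0.46 with all 16 libraries in the fit (0.0497). Between days in Jurkat sh-NC DENND2D passed at 0.43 with the DESeq2 Wald test (0.0390). The replicate block ended the call of the CHI3L2 difference between lines at day 10 (-0.41, 0.0566) and that of the mean change of OVGP1 (-0.26, 0.0707), which was also lost with no filter (-0.27, 0.112). The SH2D1A difference between lines over both days passed with the DESeq2 Wald test (-0.31, 0.0328) and without 6T-CEM sh-SH2D1A replicate 1 at day 5 (-0.34, 0.0384). Whether equal replicate numbers mark pairs is not stated, and equally numbered libraries deviated from their groups with a correlation of 0.021 to 0.044 across genes, so they were not treated as pairs. The block cannot be fitted between tables for the 3 sh-NC contrasts. OVGP1 turned direction near 0 in sh-NC between days: 0.0079 and 0.0075 in Jurkat with DESeq2 size factors and its Wald test, and 0.0258 in 6T-CEM with no filter.

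Genes called: Jurkat day 8, 873 with no filter and 1323 with all 16 libraries; 6T-CEM day 5, 1118 with DESeq2, 2188 with the replicate block and 3108 with all 16; 6T-CEM day 10, 1099 with no filter and 916 with all 16; line difference at day 10, 423 with DESeq2; over both days, 877 with DESeq2 and 660 with the block; 6T-CEM day difference, 611 and 297; Jurkat sh-NC between days, 1542 with DESeq2.

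With each library left out, DENND2D ranged over -0.59 to -0.48 in Jurkat at day 8 and -0.60 to -0.49 at day 10. CHI3L2 differences ranged over -0.44 to -0.40 between lines at day 10, -0.33 to -0.24 over both days and 0.46 to 0.64 between days in 6T-CEM. Values near 0 changed sign: CHID1 in Jurkat at day 10 (-0.1605 to 0.0847) and between Jurkat days (-0.0644 to 0.1947), DENND2D between Jurkat days (-0.0669 to 0.0427), CTBS in 6T-CEM at day 5 (-0.29 to 0.21), day 10 (-0.0633 to 0.1404) and between them (-0.16 to 0.34), and OVGP1 between 6T-CEM days (-0.0071 to 0.3007) and in sh-NC between days in Jurkat (-0.23 to 0.18) and 6T-CEM (-0.14 to 0.17). Genes called ranged over 633 to 2978 in Jurkat at day 8, 298 to 2865 in 6T-CEM at day 5, 67 to 373 and 196 to 981 for the line differences, 24 to 1684 for the 6T-CEM day difference and 94 to 1614 for Jurkat sh-NC between days. A group left with 1 library is assumed to vary like the others. The cause of these changes was not tested. CHI3L1, at 0 to 12 counts, passed the low-count filter in no comparison.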
